A study of Mus musculus with 15 samples.

Results

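The glypicans (Gpc1 to Gpc6) and the syndecans (Sdc1 to Sdc4) are families of cell-surface heparan sulfate proteoglycans of the mouse. All 10 genes of both families were taken as members by symbol and Ensembl identifier, out of 48709 genes in the count table. The study measured whole-layer (bulk) RNA from salivary gland buds of ICR mouse embryos. The labels record no genetic change and no treatment, and name no line, transgene or sort. The groups were submandibular gland (SMG) epithelium at embryonic day 11.5 (E11.5, n = 4), SMG mesenchyme at E11.5 (n = 4), parotid gland (PG) epithelium at E12 (n = 3) and PG mesenchyme at E12 (n = 4). The protocol text describes the replicates as biologically independent. How the layers were parted is not stated in the labels. The parotid buds were collected later than the submandibular buds, so gland and embryonic day cannot be told apart in any comparison between glands. In bulk RNA, fewer cells of a type and less RNA per cell cannot be told apart either.

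Heparan sulfate proteoglycans are core proteins that carry long sulfated sugar chains, and the chains bind growth factors such as FGFs, WNTs, BMPs and Hedgehog proteins and bring them to their receptors. Syndecans cross the plasma membrane and bind signalling and scaffold proteins through a short cytoplasmic tail, while glypicans are held in the outer leaflet by a lipid (GPI) anchor. Salivary bud branching depends on FGF signals from mesenchyme to epithelium, and heparan sulfate is a known cofactor of FGF receptors. An RNA level says nothing of the amount or sulfation of the chains a core protein carries.

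Gpc1 (ENSMUSG00000034220) lies on chr1:92831645-92860779 on the plus strand of GRCm38, and Gpc2 (ENSMUSG00000029510) on chr5:138273655-138280005 on the minus strand. Gpc4 (ENSMUSG00000031119, chrX:52053021-52165252, minus strand) and Gpc3 (ENSMUSG00000055653, chrX:52272426-52613950, minus strand) are neighbours, 107173 bases apart with 0 annotated genes between them. Gpc5 (ENSMUSG00000022112, chr14:115092215-116525179, plus strand) and Gpc6 (ENSMUSG00000058571, chr14:116925315-117976544, plus strand) are also close, 400135 bases apart with 1 annotated gene between them, which is not protein-coding. The syndecans lie on separate chromosomes: Sdc1 (ENSMUSG00000020592) on chr12:8771323-8793715, plus strand, Sdc2 (ENSMUSG00000022261) on chr15:32920723-33034935, plus strand, Sdc3 (ENSMUSG00000025743) on chr4:130792537-130826319, plus strand, and Sdc4 (ENSMUSG00000017009) on chr2:164424247-164443887, minus strand. Some counts can be shared with other genes. Gm43720 covers 55.59% of the exon bases of Gpc2 on the same strand, and on the opposite strand Ankmy1 covers 18.94% of those of Gpc1, Gm26716 6.93% of Sdc3 and Gm20713 2.4% of Gpc5. The library kit does not mark strand, so Gpc2 and Gpc1 levels are uncertain to that extent.

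Promoter sequence is shown for Sdc4, the member with the largest difference between layers, for Sdc3, which was higher in both parotid layers, and for Gpc3, the most abundant member. Each line holds the 250 bases before the transcription start given by RefSeq on GRCm38.p6, read 5′ to 3′ on the gene's strand, and all lie outside annotated exons. Capitals mark matches, on either strand, to GGGCGG (the GC box that Sp-type factors bind) or CCAAT.
Sdc4, chr2:164443189-164443438, minus strand: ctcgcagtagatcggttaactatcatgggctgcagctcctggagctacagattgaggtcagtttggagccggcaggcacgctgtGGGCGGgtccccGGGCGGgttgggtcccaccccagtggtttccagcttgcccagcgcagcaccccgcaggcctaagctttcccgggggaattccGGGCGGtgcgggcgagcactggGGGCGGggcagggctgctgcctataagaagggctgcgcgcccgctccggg
Sdc3, chr4:130792287-130792536, plus strand: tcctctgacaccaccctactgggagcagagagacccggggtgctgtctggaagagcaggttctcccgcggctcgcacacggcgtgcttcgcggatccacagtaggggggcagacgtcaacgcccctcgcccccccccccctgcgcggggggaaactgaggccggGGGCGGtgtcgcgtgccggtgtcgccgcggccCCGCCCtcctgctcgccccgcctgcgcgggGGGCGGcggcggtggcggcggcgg
Gpc3, chrX:52613975-52614224, minus strand: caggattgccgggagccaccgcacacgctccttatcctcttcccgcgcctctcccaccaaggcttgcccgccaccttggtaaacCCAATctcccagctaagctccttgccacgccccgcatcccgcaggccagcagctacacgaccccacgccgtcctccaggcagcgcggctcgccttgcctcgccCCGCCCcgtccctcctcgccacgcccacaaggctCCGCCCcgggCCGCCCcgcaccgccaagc
The Sdc4 window held 4 GC boxes, the Sdc3 window 3, and the Gpc3 window 3 GC boxes and 1 CCAAT. Of 32851 promoter windows of the same length, 33.8% held a CCAAT and 32.7% a GC box. The TATAAA box was found in 12.4% of all windows and the E-box CAGGTG in 17.2%, and neither was in these 3 windows. The GC content was 68.0% for Sdc4, 76.4% for Sdc3 and 71.6% for Gpc3, where the median window had 52.4%. The Sdc4 window lies inside the first intron of a longer annotated Sdc4 transcript. An entry was found for 7 of the 10 members, and none for Gpc1, Gpc6 and Sdc2.

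Each library held between 20561142 and 29552734 reads counted to genes, so that 1 read corresponds to 0.0347 to 0.0484 CPM, the count of a gene scaled to the size of its library. Log2 CPM correlated with r of 0.966 to 0.986 between libraries of a group, across genes. The labelled layers were checked against 16 epithelial and 16 mesenchymal markers. Summed epithelial markers reached 3339.9 to 4828 CPM in epithelial libraries, 13.8 to 28.2 CPM in SMG mesenchyme and 122 to 681 CPM in PG mesenchyme. Of all libraries 3 stood apart. Mesenchymal markers were at a median of 4.04% of their mesenchymal level in SMG epithelium replicate 3 and 4.88% in PG epithelium replicate 2, against 0.578% to 1.09% in the other epithelial libraries. Epithelial markers were at 16.5% of their epithelial level in PG mesenchyme replicate 1, against 2.87% to 3.57% in the other PG mesenchyme libraries and at most 0.389% in SMG mesenchyme.

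Gpc3 was the most abundant member in all 4 groups and Gpc5 the least abundant. Levels of different genes are compared as CPM per kilobase of annotated exon. On that scale the mean level of Gpc3 was 497 ± 30.5 (SD) in SMG epithelium, 815 ± 8.51 in SMG mesenchyme, 465 ± 55.5 in PG epithelium and 509 ± 71.0 in PG mesenchyme. Gpc3 thus held 86.1%, 92.0%, 86.0% and 84.9% of the summed glypican level in these groups. Sdc1 came second in every group, with mean levels of 95.3, 60.1, 74.6 and 69.5 CPM per kilobase, and its libraries overlapped with those of no other member.

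Below Gpc3 and Sdc1 the order depended on the layer. It also depends on the exon lengths used. In CPM, SMG epithelium had Gpc1 (128) and Gpc6 (122) above Gpc4 (90.3) and Sdc4 (87.8). In SMG epithelium Sdc4 and Gpc4 followed at 34.5 ± 6.0 and 34.1 ± 2.86 CPM per kilobase and overlapped with each other, and Gpc1, Gpc6, Sdc3 and Sdc2 lay between 24.9 and 13.0. In SMG mesenchyme Gpc6 held the third place at 40.6 ± 3.80, clear of Sdc2, Gpc1 and Sdc3, which overlapped in turn between 21.0 and 13.8, while Gpc4 (6.84 ± 0.930) and Sdc4 (2.58 ± 0.341) were near the bottom. In PG epithelium Gpc4 held the third place at 38.3 ± 1.73, clear of the overlapping Gpc1, Sdc3 and Sdc4. In PG mesenchyme Gpc6, Sdc3, Gpc4, Sdc2 and Gpc1 overlapped in turn between 32.5 and 25.6, and Sdc4 was lower at 6.18 ± 1.48. Gpc2 was at place 8 or 9 in each group.

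**Figure D1:**
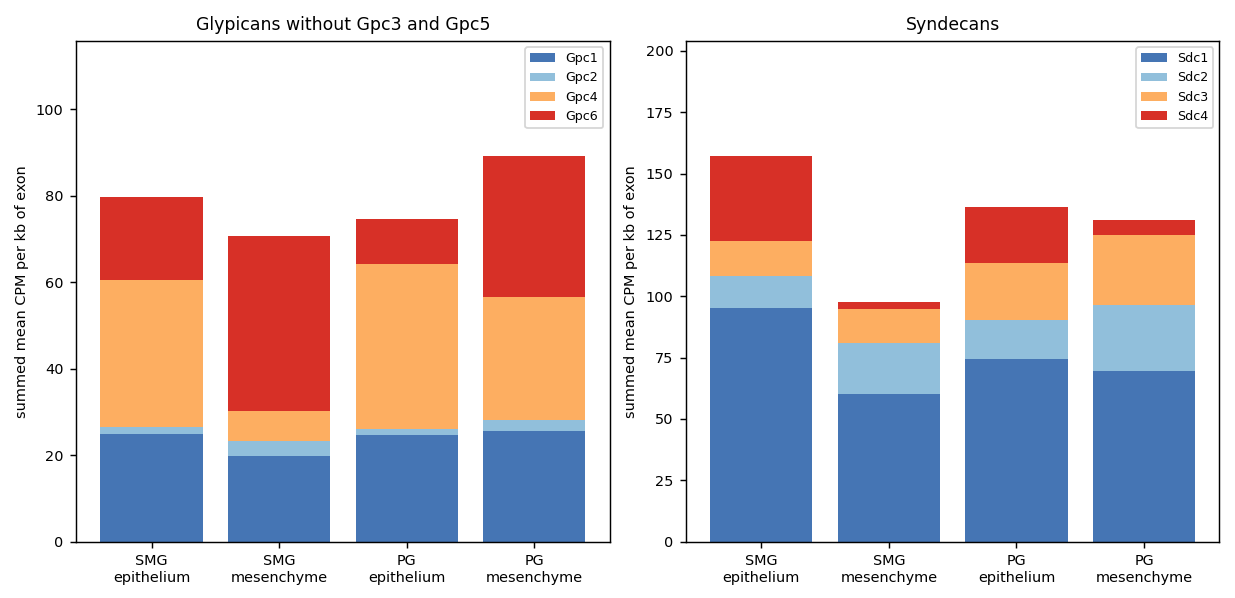
Stacked bars give the summed group mean level, in CPM per kilobase of exon, of the glypicans other than Gpc3 and Gpc5 (left) and of the syndecans (right), for the 4 groups. Sdc4 makes up 21.9% of the syndecan level in SMG epithelium and 2.66% in SMG mesenchyme.

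Sdc4 made up a larger share of the syndecan RNA in epithelium than in mesenchyme in both buds, with no overlap of the libraries. Sdc1 held 60.8 ± 2.65% (SD, n = 4) of the summed syndecan level per kilobase in SMG epithelium and 61.6 ± 1.91% (n = 4) in SMG mesenchyme. Sdc4 went from 21.9 ± 3.11% in SMG epithelium to 2.66 ± 0.390% in SMG mesenchyme, and Sdc2 from 8.31 ± 0.510% to 21.6 ± 2.47%. In the parotid bud Sdc4 held 16.8 ± 4.70% (n = 3) in epithelium and 4.72 ± 1.11% (n = 4) in mesenchyme, and Sdc3 17.0 ± 4.17% and 21.8 ± 3.35%. The summed syndecan level was 151 to 166 CPM per kilobase in SMG epithelium and 89.6 to 105 in SMG mesenchyme. In the parotid bud the layers overlapped, with 128 to 141 in the epithelium and 126 to 136 in the mesenchyme.

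**Figure D2:**
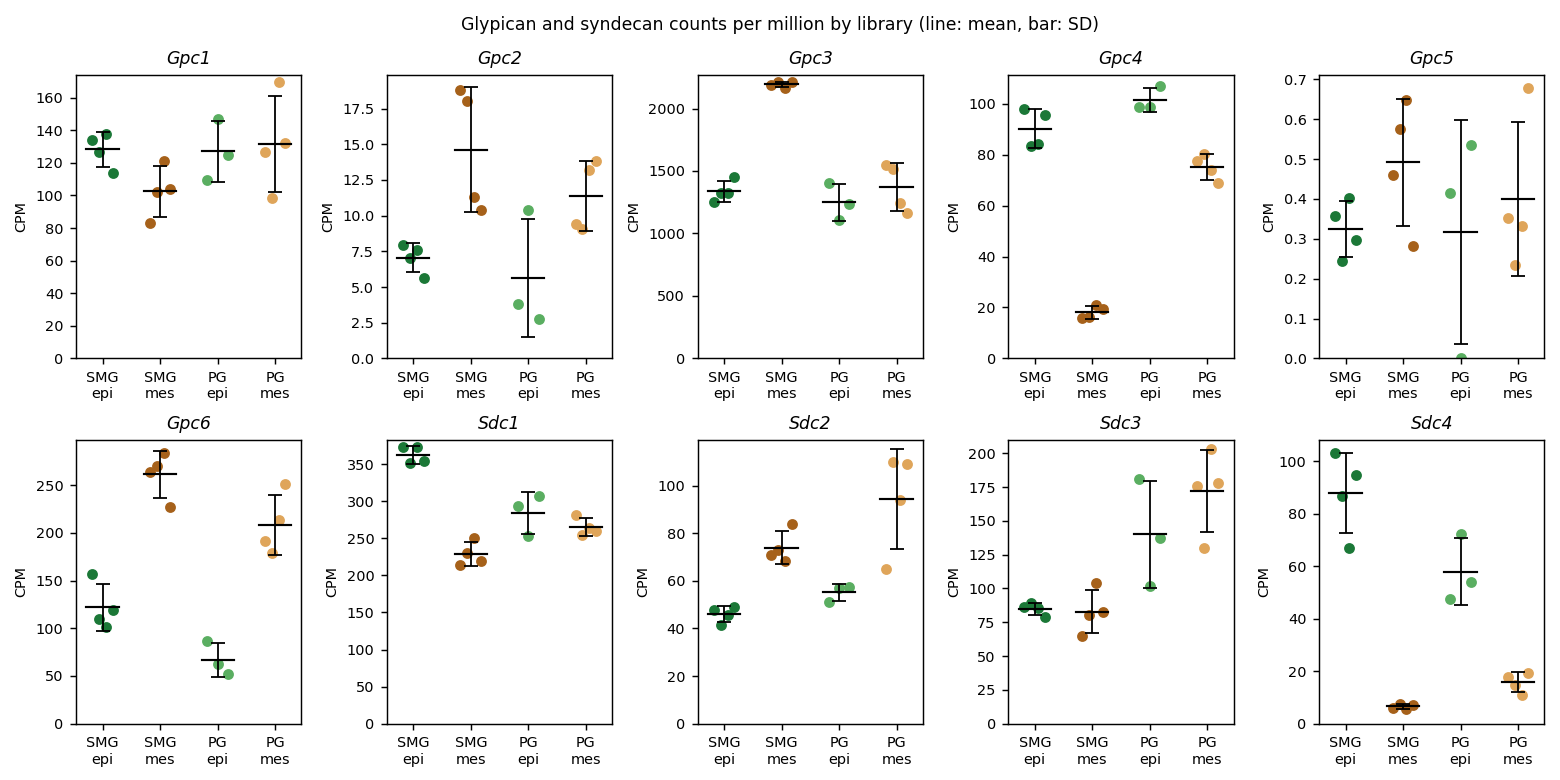
Each point is the level of the gene in 1 library, in CPM, for the 4 groups, with the group mean (line) and SD (bar). Gpc4 lies between 15.8 and 21.0 CPM in SMG mesenchyme and between 69.0 and 107 CPM in the other groups, and Sdc4 is lowest in SMG mesenchyme.

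The first comparison asked how each member divides between the layers of the submandibular bud. Sdc4, Gpc4 and Sdc1 were higher in SMG epithelium, and Gpc3, Gpc6, Sdc2 and Gpc2 were higher in SMG mesenchyme. The fold differences ran from 13.3 for Sdc4 to 1.59 for Sdc1 on the epithelial side, and from 2.14 for Gpc6 to 1.61 for Sdc2 on the mesenchymal side. All 10 members passed the filter on low counts. By edgeR's quasi-likelihood test with Benjamini-Hochberg adjustment over 18940 genes, 3 members were called higher in epithelium and 4 lower, where 25.2% and 26.7% of all genes were called (51.9% in either direction). The libraries of the layers did not overlap for 7 of the 10 members, against 49.5% of all genes. The counts lie near these shares, and the median size of the log2 difference was 0.70 over the members and 0.50 over all genes.

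Sdc4, a syndecan of focal adhesions whose tail binds protein kinase C alpha, was at 103, 86.9, 67.1 and 94.7 CPM in the 4 SMG epithelial libraries. In SMG mesenchyme Sdc4 was at 6.03, 7.57, 5.69 and 7.02 CPM. The layers did not overlap, and the log2 difference was 3.74 ± 0.20 (SE; adjusted p = 1.44e-09). Sdc1, the main syndecan of epithelia, was at 373, 351, 373 and 354 CPM in SMG epithelium against 214, 230.4, 251 and 219 CPM in mesenchyme. The layers were again apart, at a log2 difference of 0.67 ± 0.07 (adjusted p = 1.54e-06). Sdc2, a syndecan best known from mesenchymal cells, had the opposite direction, with 47.9, 41.3, 45.7 and 49.0 CPM in epithelium and 71.0, 72.8, 68.2 and 83.9 CPM in mesenchyme. Its epithelial libraries were all below its mesenchymal libraries (log2 difference -0.69 ± 0.13, adjusted p = 0.00048). Sdc3, known best from neurons and developing muscle, was at 86.4, 88.9, 85.5 and 78.6 CPM in epithelium and 65.0, 80.2, 104 and 82.4 CPM in mesenchyme. The Sdc3 libraries overlapped and the difference of 0.03 ± 0.17 did not pass the test (adjusted p = 0.893).

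Among the glypicans, Gpc4, a WNT and FGF cofactor, was at 98.0, 83.3, 84.3 and 95.6 CPM in SMG epithelium and at 15.8, 16.3, 21.0 and 19.4 CPM in SMG mesenchyme. No library of either layer came near the other layer, and the log2 difference was 2.32 ± 0.10 (adjusted p = 1.98e-10). Its neighbour Gpc3, a growth-restraining glypican whose loss causes an overgrowth syndrome, was at 1252, 1320.1, 1322 and 1449 CPM in epithelium and at 2188, 2213, 2163 and 2209 CPM in mesenchyme. Gpc3 was thus abundant in both layers and higher in each mesenchymal library (log2 difference -0.72 ± 0.09, adjusted p = 1.19e-05). Gpc6, a glypican of growing skeletal and intestinal mesenchyme, was at 157, 110.2, 101 and 119 CPM in epithelium and at 264, 270.4, 284 and 227 CPM in mesenchyme. The Gpc6 layers did not overlap (log2 difference -1.10 ± 0.16, adjusted p = 3.74e-05).

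Gpc2, a glypican of developing neurons, was at 7.93, 7.01, 7.62 and 5.62 CPM in SMG epithelium and 18.8, 18, 11.3 and 10.4 CPM in SMG mesenchyme. The layers did not overlap (log2 difference -1.06 ± 0.34, adjusted p = 0.0152). Gpc1, the broadly expressed glypican, was at 134, 127, 138 and 114 CPM in epithelium and 82.9, 102, 121 and 104 CPM in mesenchyme. These libraries overlapped, and the difference of 0.32 ± 0.15 had an adjusted p of 0.0798. It passed the test without SMG mesenchyme replicate 3 (0.41 ± 0.16, adjusted p = 0.0385) and with the SMG groups fitted alone (adjusted p = 0.0316). Gpc5 was represented by 7 to 15 reads in each SMG library, 0.243 to 0.647 CPM, and no difference between layers was detectable at this depth (log2 -0.59 ± 0.61, adjusted p = 0.445). Without SMG epithelium replicate 3, which held more mesenchymal marker RNA, the same number of members, 7, was called.

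**Figure D3:**
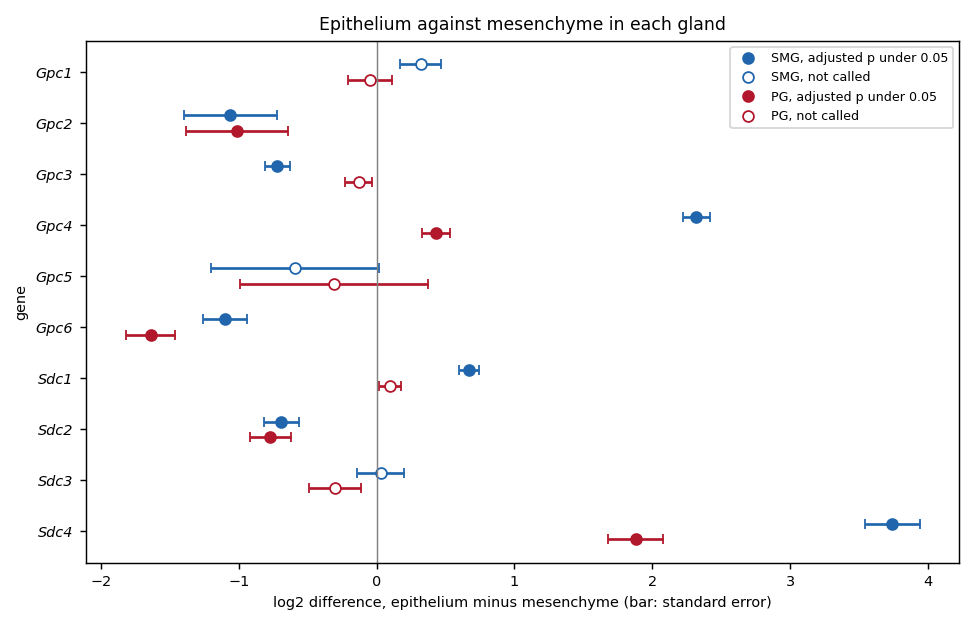
The log2 difference of epithelium minus mesenchyme with its standard error, for each member in the submandibular (SMG) and the parotid (PG) bud. Filled circles have an adjusted p under 0.05. Gpc4 falls from 2.32 in SMG to 0.43 in PG and Sdc4 from 3.74 to 1.88.

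In the parotid bud at E12, Sdc4 and Gpc4 were again higher in epithelium, and Gpc6, Sdc2 and Gpc2 higher in mesenchyme. The fold differences were 3.68 for Sdc4, 1.35 for Gpc4, 3.12 for Gpc6, 1.71 for Sdc2 and 2.01 for Gpc2. Gpc3 and Sdc1 did not pass the test here. That made 2 members called higher and 3 lower in epithelium by the same test, where 21.9% and 24.2% of all genes were called (46.0% in either direction). The layers did not overlap for 4 members, against 46.9% of all genes. The median size of the log2 difference was 0.37 over the members and 0.48 over all genes.

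Sdc4 was at 47.4, 72.2 and 54.1 CPM in PG epithelium and at 17.8, 14.8, 10.9 and 19.5 CPM in PG mesenchyme. The layers did not overlap, with a log2 difference of 1.88 ± 0.20 (adjusted p = 1.98e-06). Gpc4 was at 98.7, 99.0 and 107 CPM in PG epithelium and at 77.4, 80.5, 74.0 and 69.0 CPM in PG mesenchyme. Both layers thus held Gpc4 at levels of the same order, apart from each other by a log2 difference of 0.43 ± 0.10 (adjusted p = 0.00239). Gpc6 had 86.5, 62.4 and 51.7 CPM in epithelium and 192, 179, 213 and 251 CPM in mesenchyme. All Gpc6 mesenchymal libraries were higher (log2 difference -1.64 ± 0.18, adjusted p = 4.13e-06). Sdc2 had 51.1, 57.2 and 57.4 CPM in epithelium and 64.9, 110.0, 94.1 and 109 CPM in mesenchyme. The lowest of these mesenchymal values was replicate 1, the PG mesenchyme library with the most epithelial marker RNA, at 16.5% of the epithelial level. The part of that RNA in the Sdc2 level of this library was not tested. The log2 difference was -0.77 ± 0.15 (adjusted p = 0.00047) with that library and -0.92 ± 0.10 without it.

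Gpc2 in the parotid bud rested on few libraries. It was at 3.79, 10.4 and 2.79 CPM in PG epithelium and 9.39, 9.09, 13.2 and 13.8 CPM in PG mesenchyme. Replicate 2 of the epithelium, which held 4.88% of the mesenchymal marker level, lay within the mesenchymal range. That share multiplied by the mean Gpc2 level of PG mesenchyme comes to 0.555 CPM, where 10.4 CPM were measured. The part of mesenchymal RNA in the Gpc2 level of this library was not tested. The log2 difference of -1.01 ± 0.37 (adjusted p = 0.0365) became -1.80 ± 0.30 without that library. The call was lost, at adjusted p of 0.0769 to 0.149, when PG epithelium replicate 1 or 3 or PG mesenchyme replicate 3 or 4 was left out.

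Gpc3 was at 1406, 1108 and 1235 CPM in PG epithelium and 1546, 1518, 1244 and 1167 CPM in PG mesenchyme. The ranges overlapped (log2 difference -0.13 ± 0.10, adjusted p = 0.321). Sdc1 was at 293, 253 and 307 CPM in epithelium and 282, 255, 264 and 259.5 CPM in mesenchyme. Its libraries were mixed across the layers (0.10 ± 0.08, adjusted p = 0.312). Sdc3 was at 181, 102 and 137 CPM in epithelium and 176, 130.1, 203 and 178 CPM in mesenchyme. The Sdc3 layers overlapped (-0.30 ± 0.19, adjusted p = 0.212), and leaving out replicate 1 of the epithelium gave -0.52 ± 0.18 (adjusted p = 0.0349). Gpc1, at 109.8, 147 and 125 CPM in epithelium and 127, 98.3, 169.9 and 132 CPM in mesenchyme, also overlapped (-0.05 ± 0.16, adjusted p = 0.82). Gpc5 had 10, 0 and 14 reads in PG epithelium, where 0 reads in replicate 2 allow up to 0.117 CPM, and 6 to 14 reads in PG mesenchyme.

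Whether the layer difference itself differed between the glands was tested as an interaction in the same edgeR model. The difference between layers was smaller in the parotid bud for Gpc4, Sdc4, Sdc1 and Gpc3. The interaction on the log2 scale, the PG difference minus the SMG difference, was -1.88 ± 0.14 for Gpc4 (adjusted p = 1.07e-06) and -1.86 ± 0.27 for Sdc4 (adjusted p = 0.00032). For Sdc1 it was -0.56 ± 0.11 (adjusted p = 0.00215), and for Gpc3, which is higher in mesenchyme, 0.58 ± 0.14 (adjusted p = 0.0102). Among the 10 members 1 was called higher and 3 lower, against 5.97% and 8.32% of all genes (14.3% in either direction). All 4 calls held without PG mesenchyme replicate 1, without PG epithelium replicate 2 and without SMG epithelium replicate 3. In the other PG mesenchyme libraries epithelial markers were still at 2.87% to 3.57% of their epithelial level, against at most 0.389% in SMG mesenchyme. The part of this RNA in the interaction was not tested. Gpc6 had an interaction of -0.54 ± 0.24 (adjusted p = 0.154), which passed only without PG epithelium replicate 1, at -0.72 ± 0.21 (adjusted p = 0.0389). For Gpc2, Sdc2 and Gpc5 the interaction was 0.05 ± 0.49, -0.09 ± 0.20 and 0.28 ± 0.91, and none passed.

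**Figure D4:**
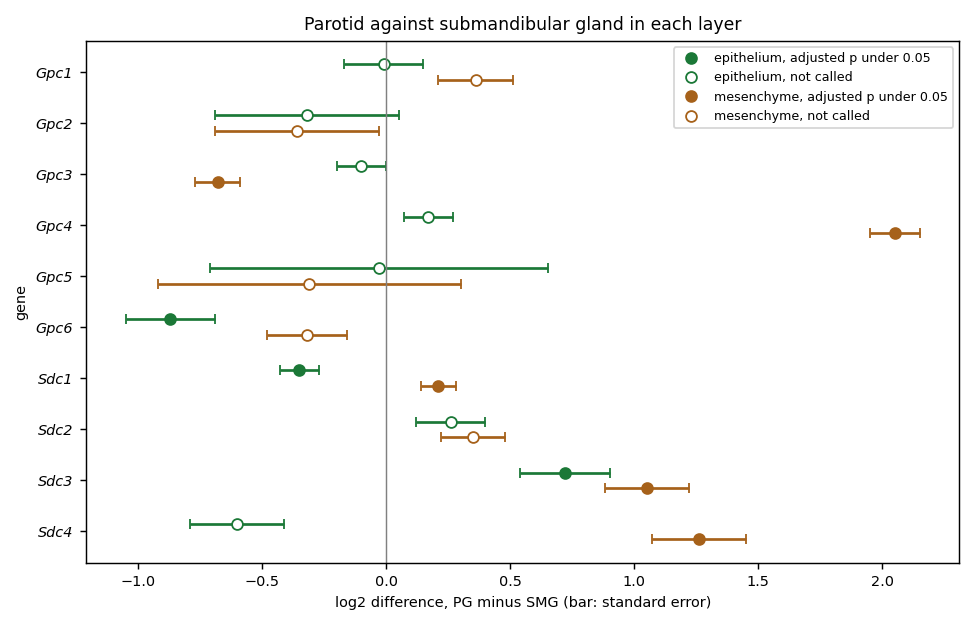
The log2 difference of parotid (PG, E12) minus submandibular (SMG, E11.5) with its standard error, for each member in epithelium and in mesenchyme. Filled circles have an adjusted p under 0.05. Gpc4 is at 2.05 in mesenchyme and at 0.17 in epithelium.

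Between the mesenchymes, Gpc4, Sdc4, Sdc3 and Sdc1 were higher in PG and Gpc3 was lower. The Gpc4 mean was 75.2 ± 4.92 CPM (SD, n = 4) in PG mesenchyme and 18.1 ± 2.46 CPM (n = 4) in SMG mesenchyme. That is a 4.15-fold difference, with no overlap (log2 2.05 ± 0.10, adjusted p = 7.37e-09), and Gpc4 had rank 3 by p among all 18940 genes. Sdc4 was 2.39-fold higher in PG mesenchyme, at 15.7 ± 3.78 against 6.58 ± 0.867 CPM (log2 1.26 ± 0.19, adjusted p = 0.000192). Sdc3 was 2.07-fold higher, at 172 ± 30.5 against 82.9 ± 16.2 CPM (log2 1.05 ± 0.17, adjusted p = 0.000396). Gpc3 was 1.60-fold lower, at 1369 ± 191 against 2194 ± 22.9 CPM (log2 -0.68 ± 0.09, adjusted p = 9.33e-05). Each of these genes had libraries that did not overlap between the glands.

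In this comparison 4 members were called higher and 1 lower, where 15.3% and 9.43% of all genes were called (24.7% in either direction), and 5 members did not overlap, against 26.2% of all genes. The fifth called member, Sdc1, was 1.16-fold higher in PG mesenchyme, at 265 ± 11.8 against 229 ± 16.5 CPM (log2 0.21 ± 0.07, adjusted p = 0.0431). Its call was lost, at adjusted p of 0.0628 to 0.132, when any of 3 SMG mesenchyme libraries (replicates 1, 2 and 4) or 3 PG mesenchyme libraries (replicates 1, 3 and 4) was left out. Sdc2 was at 94.5 ± 21.0 against 74.0 ± 6.87 CPM and did not pass (log2 0.35 ± 0.13, adjusted p = 0.0669). Sdc2 was called without PG mesenchyme replicate 1 (0.50 ± 0.09, adjusted p = 0.00126) or SMG mesenchyme replicate 4 (0.42 ± 0.14, adjusted p = 0.0452). Gpc1 at 132 ± 29.4 against 103 ± 15.6 CPM (adjusted p = 0.0899) passed only without PG mesenchyme replicate 2 (0.48 ± 0.13, adjusted p = 0.0189). Gpc6 (-0.32 ± 0.16, adjusted p = 0.168) and Gpc2 (-0.36 ± 0.33, adjusted p = 0.481) did not pass.

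Epithelial and skeletal muscle marker RNA also differed between the mesenchymes and is given beside these values. The share of epithelial marker RNA in each PG mesenchyme library, multiplied by the mean Gpc4 level of PG epithelium, comes to 16.7, 2.91, 2.96 and 3.62 CPM, where 77.4, 80.5, 74.0 and 69.0 CPM of Gpc4 were measured. Without replicate 1 the Gpc4 difference between mesenchymes was 2.04 ± 0.11 on the log2 scale. For Sdc4 the same product is 9.56, 1.66, 1.69 and 2.07 CPM, where 17.8, 14.8, 10.9 and 19.5 CPM were measured, and the difference without replicate 1 was 1.19 ± 0.20. The 8 skeletal muscle markers, all detected in every mesenchymal library, summed to 858 to 1746 CPM in PG mesenchyme and 37.1 to 194 CPM in SMG mesenchyme. In the epithelia they summed to 5.53 to 32.2 CPM, with Myog, Myf5 or Chrna1 at 0 in 5 of the 7 libraries. Their part in the higher Sdc3 and Sdc4 of PG mesenchyme was not tested, nor in the other differences between mesenchymes, pathway genes included. In the order of replicates, muscle markers summed to 1746, 1429.5, 1135 and 858 CPM in PG mesenchyme, while Sdc3 was at 176, 130.1, 203 and 178 CPM.

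Between the epithelia, Gpc6 and Sdc1 were lower in PG and Sdc3 was higher. Gpc6 was at 66.9 ± 17.8 CPM (SD, n = 3) in PG epithelium and 122 ± 24.6 CPM (n = 4) in SMG epithelium, a log2 difference of -0.87 ± 0.18 (adjusted p = 0.00452). Sdc3 was at 140.0 ± 39.4 against 84.9 ± 4.40 CPM, a log2 difference of 0.72 ± 0.18 (adjusted p = 0.0172), and Sdc1 at 284 ± 28.3 against 363 ± 11.7 CPM (-0.35 ± 0.08, adjusted p = 0.00728). These genes did not overlap between the glands. In all, 1 member was called higher and 2 lower, where 7.07% and 4.66% of all genes were called (11.7% in either direction). The libraries did not overlap for 5 members, against 23.1% of all genes. The other non-overlapping members were Gpc4 (101 ± 4.58 against 90.3 ± 7.57 CPM, adjusted p = 0.333) and Sdc2 (55.2 ± 3.62 against 46.0 ± 3.39 CPM, adjusted p = 0.28).

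Single libraries decided several of these epithelial values. When PG epithelium replicate 1 was left out the Sdc3 difference was 0.51 (adjusted p = 0.0828). The Sdc1 difference came to -0.26 (adjusted p = 0.0541) when replicate 2 was left out. Sdc4, at 57.9 ± 12.8 CPM in PG and 87.8 ± 15.3 CPM in SMG epithelium, had a log2 difference of -0.60 ± 0.19 and did not pass (adjusted p = 0.0578). It passed without SMG epithelium replicate 3 (-0.71, adjusted p = 0.0299) and without PG epithelium replicate 2 (-0.77, adjusted p = 0.0283). Sdc4 was at 67.1 CPM in the former, the lowest of SMG epithelium, and at 72.2 CPM in the latter, the highest of PG epithelium. Each of these libraries held the most mesenchymal marker RNA of its group, and the part of that RNA in Sdc4 was not tested. The Sdc4 difference also passed with DESeq2 (-0.58, adjusted p = 0.0409). Gpc2 went from -0.32 ± 0.37 (adjusted p = 0.659) to -1.08 ± 0.30 (adjusted p = 0.0304) without PG epithelium replicate 2. Gpc3 (-0.10 ± 0.10, adjusted p = 0.628) and Gpc1 (-0.01 ± 0.16, adjusted p = 0.976) did not pass. The 8 neuron and Schwann precursor markers summed to 139.8, 237 and 88.3 CPM in the PG epithelial libraries and to 33.0 to 45.5 CPM in SMG epithelium. All PG epithelial libraries were thus above all SMG epithelial libraries in these markers. In the same order Sdc3 was at 181, 102 and 137 CPM. Their part in the Sdc3 difference was not tested, and 1 of these markers, Sox10, is also made by salivary epithelium.

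The other genes of the pathway were taken as 5 lists with 54 genes in all: enzymes that build, sulfate, edit or cut the chains and core proteins, proteins that bind syndecan tails, and other heparan sulfate core proteins. Of these genes 52 passed the filter. In SMG epithelium 22 were higher and 15 lower than in SMG mesenchyme, where 25.2% and 26.7% of all genes were called. In PG epithelium 13 were higher and 16 lower than in PG mesenchyme, against 21.9% and 24.2% of all genes. Between mesenchymes 22 were higher and 3 lower in PG, against 15.3% and 9.43% of all genes. Between epithelia 7 were higher and 5 lower in PG, against 7.07% and 4.66% of all genes. The interaction was called for 4 higher and 15 lower, against 5.97% and 8.32% of all genes. The counts of the single lists below are to be read beside these same shares of all genes.

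**Figure D5:**
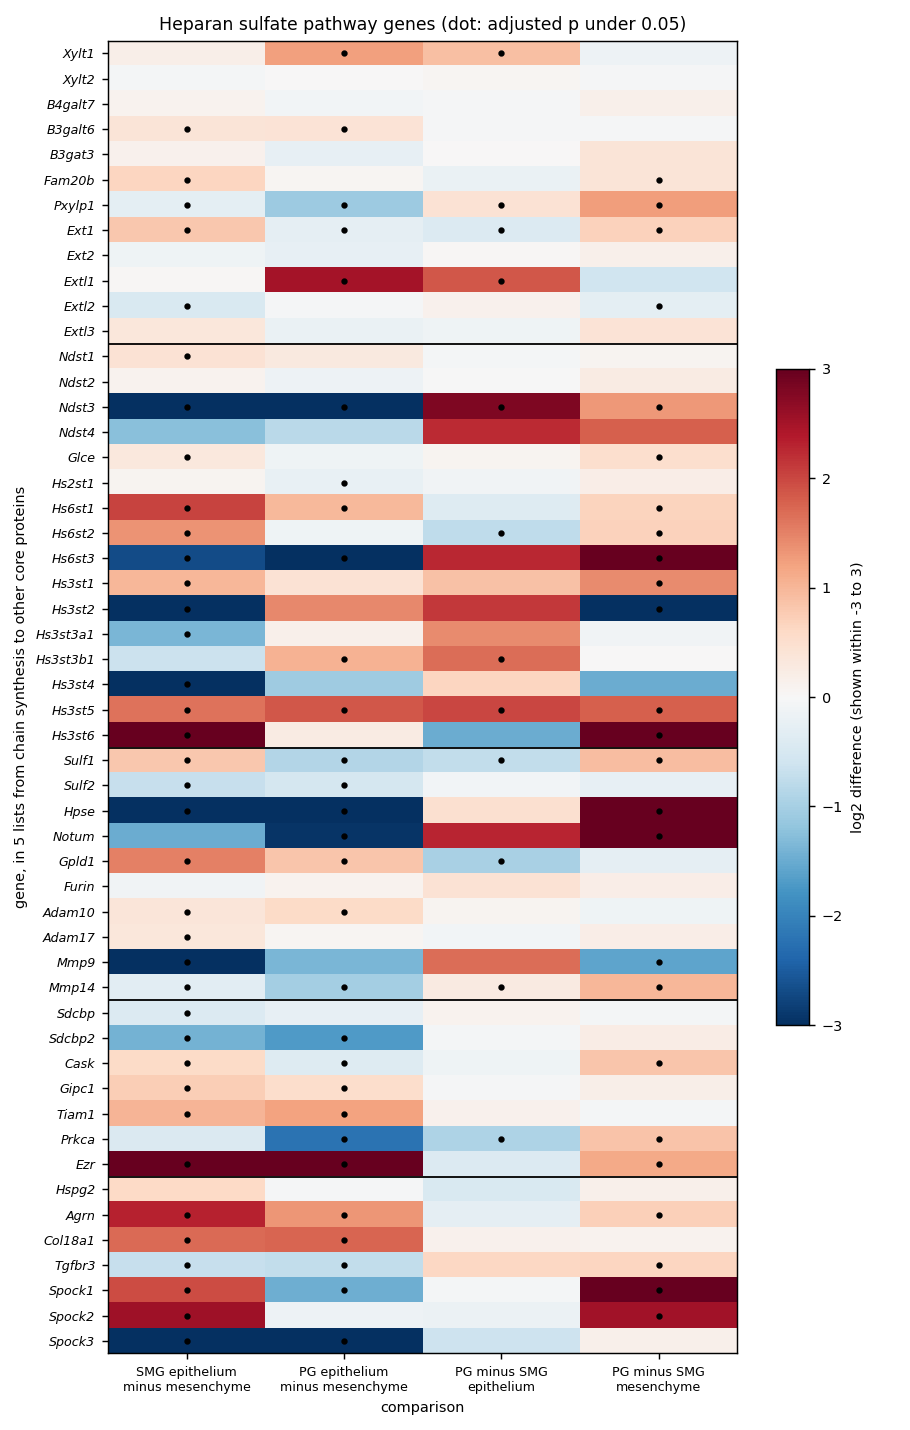
Colours give the log2 difference, shown within -3 to 3, of each tested heparan sulfate gene in the 4 comparisons, and dots mark an adjusted p under 0.05. Lines part the 5 lists: chain synthesis, sulfation, editing and shedding, syndecan tail partners, and other core proteins. In the PG minus SMG mesenchyme column 22 of the dots are on positive values.

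Chain initiation and elongation (12 genes) had 3 genes higher and 2 lower in SMG epithelium, and a median log2 difference of 0.11 over the list against 0 over all genes. Ext1, a subunit of the enzyme that extends the chain, was at 112 ± 3.72 CPM in SMG epithelium and 63.7 ± 2.24 CPM in SMG mesenchyme (log2 0.81 ± 0.07, adjusted p = 9.7e-08). In the parotid bud Ext1 had the reverse direction, at 84.6 ± 4.34 CPM in epithelium and 102 ± 7.60 CPM in mesenchyme (log2 -0.27 ± 0.07, adjusted p = 0.00699). This parotid call was lost with no filter on low counts (adjusted p = 0.0581) and without both parotid libraries that stood apart (adjusted p = 0.0512). The interaction for Ext1 was -1.07 ± 0.10 (adjusted p = 6.38e-06). Fam20b, a xylose kinase that promotes chain growth, was higher in SMG epithelium (0.65 ± 0.11, adjusted p = 0.000185). Pxylp1, the phosphatase that removes that phosphate, was higher in PG than in SMG mesenchyme, at 51.1 ± 1.29 against 21.5 ± 2.18 CPM (log2 1.25 ± 0.10, adjusted p = 1.01e-06). In this list 3 genes were higher and 1 lower in PG mesenchyme, and 3 higher and 1 lower in PG epithelium, against SMG. Within the parotid bud it had 3 genes higher and 2 lower in epithelium and a median of -0.06, with Xylt1, which starts the chain, among the higher (1.24 ± 0.28, adjusted p = 0.002).

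Sulfation and epimerisation (16 genes) had 7 genes higher and 5 lower in SMG epithelium, with a median of 0.10. Hs6st1, a 6-O-sulfotransferase, was at 164 ± 7.26 CPM in SMG epithelium and 40.2 ± 6.07 CPM in mesenchyme (log2 2.02 ± 0.16, adjusted p = 5.33e-08). Ndst3, an N-deacetylase and N-sulfotransferase, was lower in epithelium in both buds, at 0.0529 ± 0.0598 against 5.01 ± 2.48 CPM in SMG (adjusted p = 1.78e-06) and 0.403 ± 0.459 against 12.3 ± 2.73 CPM in PG (adjusted p = 1.58e-05). Hs3st6, a 3-O-sulfotransferase, was at 8.90 ± 2.81 CPM in SMG epithelium and 0.274 ± 0.113 CPM in SMG mesenchyme (log2 4.99 ± 0.57, adjusted p = 2.54e-06). In the parotid bud the list had 3 genes higher and 3 lower in epithelium, with a median of 0.02. Another 3-O-sulfotransferase, Hs3st5, was higher in PG epithelium, at 5.31 ± 1.53 CPM, than in PG mesenchyme, at 1.45 ± 0.0370 CPM (log2 1.87 ± 0.32, adjusted p = 0.00019). Between mesenchymes 8 genes of the list were higher in PG and 1 lower, with a median log2 difference of 0.59 against 0.02 over all genes. Hs3st1 was among the higher, at 31.5 ± 5.83 against 11.8 ± 3.35 CPM (log2 1.42 ± 0.29, adjusted p = 0.00218). Between epithelia 3 were higher and 1 lower in PG, with a median of 0.75 against 0 over all genes. The lower one was Hs6st2, at 84.9 ± 10.5 against 145 ± 7.38 CPM (log2 -0.77 ± 0.09, adjusted p = 6.74e-05). With 3 of 16 genes called higher, most genes above the epithelial median of 0.75 did not pass the test. The list also holds genes with few reads in both epithelia. In PG against SMG epithelium, Ndst3 was at 0.403 against 0.0529 CPM and Ndst4 at 0.526 against 0.108 CPM.

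Of the 12 genes that edit chains or cut core proteins, 10 were tested, with 4 higher and 4 lower in SMG epithelium, 2 higher and 5 lower in PG epithelium, each against its mesenchyme. The extracellular 6-O-endosulfatases went apart: Sulf1 was at 263 ± 29.9 CPM in SMG epithelium and 151 ± 3.42 CPM in SMG mesenchyme (log2 0.80 ± 0.17, adjusted p = 0.000807), and Sulf2 at 358 ± 14.7 and 575 ± 23.7 CPM (-0.69 ± 0.10, adjusted p = 3.17e-05). Hpse, the heparanase that cuts the chains, was at 37.1 ± 11.2 CPM in PG mesenchyme, 0.648 ± 0.143 CPM in PG epithelium and 4.63 ± 1.58 CPM in SMG mesenchyme. Its log2 difference was -5.83 ± 0.41 between PG layers (adjusted p = 5.87e-08) and 3.00 ± 0.30 between mesenchymes (adjusted p = 4.33e-06). Mmp14, a membrane protease that can shed Sdc1, was at 365 ± 20.8 CPM in PG mesenchyme and 183 ± 12 CPM in SMG mesenchyme (log2 1.00 ± 0.07, adjusted p = 1.76e-07). Gpld1, a phospholipase that can cut GPI anchors, was higher in SMG epithelium (1.52 ± 0.17, adjusted p = 1.86e-06), though 45.54% of its exon bases overlap Mrs2 on the opposite strand. The list had 4 genes higher and 1 lower in PG mesenchyme, and 1 higher and 2 lower in PG epithelium, against SMG.

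Proteins that bind syndecan tails (7 genes) had 4 higher and 2 lower in SMG epithelium, where 51.9% of all genes were called in either direction. In PG epithelium 3 were higher and 3 lower, where that share was 46.0%. Ezr, which links membrane proteins to actin, was at 458 ± 22.8 CPM in SMG epithelium and 14.6 ± 3.09 CPM in SMG mesenchyme (log2 4.97 ± 0.44, adjusted p = 7.12e-07). Its higher level in PG mesenchyme (1.13 ± 0.38, adjusted p = 0.0485) came down to 0.38 (adjusted p = 0.0525) without PG mesenchyme replicate 1. Tiam1, a Rac activator that binds Sdc1, was higher in epithelium in both buds, by 1.01 ± 0.13 (adjusted p = 1.24e-05) and 1.21 ± 0.14 (adjusted p = 6.7e-06). Prkca, the kinase bound by Sdc4, went the other way from Sdc4 in the parotid bud, at 4.12 ± 0.866 CPM in epithelium and 19.3 ± 2.01 CPM in mesenchyme (log2 -2.22 ± 0.21, adjusted p = 9.53e-07). Between glands 3 of the list were higher in PG mesenchyme, Prkca among them (0.86 ± 0.18, adjusted p = 0.00249), and 1, again Prkca, was lower in PG epithelium (-0.93 ± 0.21, adjusted p = 0.00733).

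The other heparan sulfate core proteins (7 genes) had 4 higher and 2 lower in SMG epithelium, with a median log2 difference of 1.70 against 0 over all genes. In PG epithelium 2 were higher and 3 lower, with a median of -0.16 against -0.01. Agrn, the basement membrane protein agrin, was at 440.3 ± 39.2 CPM in SMG epithelium and 89.3 ± 17.9 CPM in SMG mesenchyme (log2 2.30 ± 0.21, adjusted p = 3.9e-07). Col18a1, another basement membrane core protein, was at 681 ± 107 CPM in PG epithelium and 203 ± 81.5 CPM in PG mesenchyme (1.74 ± 0.26, adjusted p = 8.98e-05). Spock3, a secreted testican, lay on the mesenchymal side in both buds, at 1.56 ± 0.669 against 38.2 ± 13.4 CPM in SMG (adjusted p = 8.33e-05) and 0.995 ± 1.41 against 42.5 ± 18.3 CPM in PG (adjusted p = 0.000143). Its relatives Spock1 (3.38 ± 0.37, adjusted p = 9.2e-06) and Spock2 (2.52 ± 0.31, adjusted p = 3.1e-05) were among the 4 genes of the list that were higher in PG than in SMG mesenchyme.

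Across the 15 libraries, some members ran in parallel and others in opposite directions. These correlations of log2 CPM describe the 4 groups, since points of a group share layer, gland and day. Gpc3 and its neighbour Gpc4 were opposed (Pearson r = -0.92). Sdc4 ran with Sdc1 (r = 0.86) and Gpc4 (r = 0.83), and Gpc2 with Gpc6 (r = 0.80). Of all tested genes with a mean of at least 5 CPM, those most like Gpc4 over the 15 libraries were Slc48a1 (r = 0.986), Socs2 (0.975) and Cyb561d2 (0.973). Those most like Sdc4 were Mt2 (0.992), Bex1 (0.988) and Ifnlr1 (0.987). The closest match was Idh2 for Gpc3 (0.964), Hsdl1 for Sdc1 (0.966), Pik3r3 for Gpc6 (0.959), Ntan1 for Sdc2 (0.96) and Ankrd27 for Sdc3 (0.938). For Gpc2 it was Xiap (0.935), for Gpc1 Tmem184b (0.9) and for Gpc5, measured with few reads, Zbtb25 (0.798).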

How the data were processed

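Bulk RNA of 15 libraries was analysed. Per the labels' protocols, RNA was extracted with TRIzol and made into full-length cDNA with SMART-Seq v4 and into libraries with Nextera XT. The authors deposited a table of raw read counts per gene and a table of CPM, counts scaled to library size. STAR 2.5.2a, DESeq2, edgeR, limma, GRCm38.p3 and mm10 are named without their roles, per the submitters' processing notes. Which program counted the reads, on which annotation and with which strand setting, is not given in the sources used here. Of the deposited CPM values, 100.00% were whole multiples of 1 read within 0.001 reads, and a count test on these reads was run as an added alternative chosen after seeing the data. It called 9826, 8721, 2221, 4678 and 2705 genes in the 5 comparisons, the same genes as the deposited counts did. This run thus repeats the counts and is not a separate check. The 92 ERCC spike-in entries were left out, and 48349 of 48709 identifiers had a symbol.

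Counts were tested with edgeR 4.0.16 in R 4.3.3 (TMM scaling, filterByExpr by group, which left 18940 genes, and glmQLFit with robust estimation). One model with 1 mean per group over all 15 libraries gave 2 layer comparisons, 2 gland comparisons and their interaction, each 2-sided. The adjusted p (Benjamini-Hochberg) covers the whole set of tested genes, and 0.05 was the threshold. CPM printed here were computed from the counts. CPM per kilobase used exon lengths of the GENCODE M21 annotation, on GRCm38. The scripts were tested on simulated data. Alternatives were DESeq2 1.42.0 and its size factors, limma 3.58.1 on deposited CPM, no filter, only the groups compared, the replicate block and leaving out libraries. The members, the 5 pathway lists and the marker lists were chosen with earlier results of these data known. All 10 members are named, and from each pathway list up to 2 genes per direction and comparison with the largest change among those past the threshold with at least 5 CPM in the higher group, of which the text gives a part. The 3 most alike genes per member were found by Pearson r. Endothelial markers summed to 356 to 614 CPM in mesenchymal and 4.00 to 32.0 CPM in epithelial libraries, macrophage markers to 24.3 to 65.2 and 2.06 to 11.9 CPM, and erythroid markers to 2074 to 8977 and 179 to 2263 CPM. A count of 0 allows up to 3 counts, which covers counting error only.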

Additional observations from a re-analysis of the deposited data

Results flagged for a closer look

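For 4 members the difference between epithelium and mesenchyme differed between the parotid and the submandibular bud by the interaction test of edgeR's quasi-likelihood model. On the log2 scale the parotid difference minus the submandibular difference was -1.88 for Gpc4, -1.86 for Sdc4, -0.56 for Sdc1 and 0.58 for Gpc3. Over 22 alternatives these values ranged from -1.96 to -1.81 for Gpc4, from -2.03 to -1.68 for Sdc4, from -0.61 to -0.44 for Sdc1 and from 0.51 to 0.74 for Gpc3, and each passed the threshold in all of them. These alternatives include the run on reads recovered from the deposited CPM, which repeats the counts. All kept PG mesenchyme libraries with more epithelial marker RNA than any SMG mesenchyme library, and the part of that RNA was not tested. No member had a library far from the other libraries in the groups of 4, by Dixon's test of the gap to the nearest library.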

How the results depend on the processing

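No called result reversed under any alternative run. In all, 1713 values kept their status, called or not called, 83 lost and 14 gained a call. A kept status does not mean an unchanged size. The Gpc2 difference between PG layers went from -1.01 to -1.89 without PG epithelium replicate 2 and PG mesenchyme replicate 1 together, and kept its call. Those 1713 include the 40 group levels below, which are not calls, and the run on reads recovered from the deposited CPM, which repeats the counts. The number of members called between the epithelia, 3, became 5 without PG epithelium replicate 2 and PG mesenchyme replicate 1 together. Leaving out 1 library at a time it ran from 2 to 4 between epithelia, 7 to 8 between SMG layers, 4 to 5 between PG layers, 4 to 6 between mesenchymes and 4 to 5 for the interaction. All 40 group levels moved by less than 1 SD with the deposited CPM. The Gpc2 difference between PG layers also lost its call with no filter (adjusted p = 0.0696) and with only the groups compared (adjusted p = 0.104), and Sdc1 between mesenchymes likewise (adjusted p = 0.122 and 0.0939). Among pathway genes Hs3st3b1 between PG layers came to 0.67 (adjusted p = 0.176) without PG epithelium replicate 1, and Cask to -0.18 (adjusted p = 0.144) without both parotid libraries. Over all alternatives the adjusted p ran from 0.000193 to 0.149 for Gpc2 and from 0.0349 to 0.666 for Sdc3 between PG layers, and from 0.0316 to 0.231 for Gpc1 between SMG layers. Between epithelia it ran from 0.025 to 0.218 for Sdc4, 0.00292 to 0.0828 for Sdc3, 0.00131 to 0.0541 for Sdc1 and 0.027 to 0.983 for Gpc2. Between mesenchymes it ran from 0.0191 to 0.132 for Sdc1, 0.00126 to 0.194 for Sdc2 and 0.0189 to 0.298 for Gpc1. The causes were not tested.

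Same-numbered libraries correlated at 0.014 to 0.282 between SMG layers, where 3 of 4 pairs were over 0.1 and differently numbered pairs ran from -0.174 to 0.028, a hint from the data that some numbers may pair these layers. The correlations were -0.124 to 0.07 between PG layers, -0.098 to 0.093 between epithelia and -0.071 to 0.07 between mesenchymes. A library was closest to its own number in 3 of 4, 1 of 3, 2 of 3 and 1 of 4 cases. The replicate block took different forms. For the layer comparisons and the interaction it had a term for each replicate number within each gland. PG mesenchyme replicate 4, with no epithelial library of its number, then adds nothing to the PG layer comparison. For the gland comparisons the block had a term for each replicate number, shared by both glands. Of all genes, 9725 were called with the replicate block between SMG layers, 7925 between PG layers, 1961 between epithelia, 4689 between mesenchymes and 1979 for the interaction, and 7, 4, 3, 5 and 4 members. Gpc2 between PG layers was at -1.11 with it (adjusted p = 0.0573). Depth limits Gpc5 most, at no more than 15 reads in any library.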
